A study of Homo sapiens with 12 samples.

Results

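The HLA class I genes HLA-B, HLA-C, HLA-E, HLA-F and HLA-G and B2M, the gene of their shared light chain, were followed in human head and neck squamous cell carcinoma (HNSCC) cells given interferon alpha (IFNα). They were found by gene symbol, and all 6 were present among the 60099 genes of the table. On GRCh38 HLA-F (chr6:29722775-29738528), HLA-G (chr6:29826967-29831125) and HLA-E (chr6:30489467-30494205) lie on the plus strand and HLA-C and HLA-B on the minus strand of the class I region, and B2M lies at chr15:44711477-44718877. Cells of 2 established HNSCC lines, Cal27 and HN30, were left untreated or were kept with 20 or 200 ng/ml IFNα for 24 h. Each dose had 4 samples, and no other treatment or genetic change was named. Samples carry a letter and a replicate number, 1 or 2. A and D denote controls, B and E the dose of 20 ng/ml, and C and F that of 200 ng/ml. The first 3 letters span all doses, as do the last 3, and they are called line sets A-C and D-F, because the labels do not say which letters belong to Cal27 and which to HN30. Nothing said whether 2 replicates came from separate cultures, so the p-values measure the spread between these samples, which may be technical.

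A class I molecule on the cell surface is a heavy chain encoded by an HLA gene, the light chain β2-microglobulin encoded by B2M, and a short peptide cut from proteins inside the cell. HLA-B and HLA-C are classical genes: they are highly polymorphic, are made by nearly all nucleated cells and show peptides to CD8+ T cells, and HLA-C is also a main ligand of killer immunoglobulin-like receptors on natural killer cells. HLA-E, HLA-F and HLA-G are nonclassical genes with few alleles. HLA-E carries peptides from the leader sequences of other class I chains and is read by the CD94 and NKG2 receptors of natural killer cells, HLA-F can reach the surface with or without peptide, and HLA-G is known from the trophoblast of the placenta. Interferons are known to raise class I genes through STAT2 and IRF9, through IRF1 and through the coactivator NLRC5, and tumours that lose class I or B2M are poorly seen by CD8+ T cells.

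The promoters are shown first because class I genes are known for a shared set of short response words close to the start of the gene. RefSeq promoter windows of build GRCh38.p14 were given for HLA-B, HLA-C, HLA-F, HLA-G and B2M, and not for HLA-E. Each line below holds the 160 bases from 200 to 41 bases before the annotated start, 5′ to 3′ on the strand of the gene. Capitals mark matches on either strand to GAAANNGAA or GAANNGAAA, which are arrangements of the core of an interferon-stimulated response element, to GGGGNNTCC, part of a κB site, to TGACG, part of a cAMP response or X2 box, and to ATTGG, the Y box or inverted CCAAT. GAANNGAAA was added after the windows had been seen. Of the 3 windows given for HLA-G, the one shown has the start farthest downstream.
HLA-B (chr6:31357220-31357379, minus strand): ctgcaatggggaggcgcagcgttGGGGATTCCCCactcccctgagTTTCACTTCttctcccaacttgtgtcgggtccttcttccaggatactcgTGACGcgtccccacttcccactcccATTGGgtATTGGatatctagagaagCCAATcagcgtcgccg
HLA-C (chr6:31272133-31272292, minus strand): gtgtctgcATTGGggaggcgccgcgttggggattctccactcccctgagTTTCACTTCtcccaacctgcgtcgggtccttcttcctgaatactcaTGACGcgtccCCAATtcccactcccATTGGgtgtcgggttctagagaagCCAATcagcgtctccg
HLA-F (chr6:29723234-29723393, plus strand): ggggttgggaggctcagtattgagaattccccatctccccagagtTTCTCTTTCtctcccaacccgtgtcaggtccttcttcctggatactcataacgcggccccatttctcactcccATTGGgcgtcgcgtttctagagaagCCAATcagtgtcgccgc
HLA-G (chr6:29827625-29827784, plus strand): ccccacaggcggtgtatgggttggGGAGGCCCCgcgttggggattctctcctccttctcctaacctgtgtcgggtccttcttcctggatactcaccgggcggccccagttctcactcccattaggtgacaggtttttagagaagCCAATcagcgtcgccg
B2M (chr15:44711317-44711476, plus strand): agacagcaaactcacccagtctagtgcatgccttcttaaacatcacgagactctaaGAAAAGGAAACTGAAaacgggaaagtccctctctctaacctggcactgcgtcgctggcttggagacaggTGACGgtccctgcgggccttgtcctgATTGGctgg

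In these letters HLA-B and HLA-C were alike. Each held GAANNGAAA, at 155 and 151 bases before the start, and TGACG, at 106 and 105 bases. Each also held ATTGG, at 81 and 80 bases, and the same word on the opposite strand, CCAAT, at 56 bases. Further matches to ATTGG on either strand lay at 74 bases in HLA-B and at 192 and 95 bases in HLA-C. HLA-B also held GGGGNNTCC on both strands in 1 overlapping stretch. HLA-F held GAAANNGAA at 155 bases, ATTGG at 82 bases and CCAAT at 57 bases. B2M held GAAANNGAA at 144 and 138 bases in matches that overlap, TGACG at 75 bases and ATTGG at 49 bases. The HLA-G window held GGGGNNTCC at 176 bases and CCAAT at 56 bases, and neither arrangement of the response element. Of all 35116 windows, 6.88% held GAAANNGAA in the 250 bases before the start, 6.56% held GAANNGAAA, 6.90% held GGGGNNTCC, 21.2% held TGACG and 32.0% held ATTGG. A match describes the letters only, and binding was not measured.

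The order of the members by TPM, a value scaled for transcript length and depth, followed the classical and nonclassical division. In every sample HLA-B and HLA-C both lay above HLA-E, HLA-E above HLA-F, and HLA-F above HLA-G. HLA-B was the highest of the 5 in 10 of 12 samples, and HLA-C was above it in A1 and C2. In the controls, over 4 samples, HLA-B averaged 354.5 ± 22.4 TPM (SD) and HLA-C 256 ± 74.7 TPM, and their ranges overlapped. HLA-E then averaged 76.6 ± 8.30 TPM, HLA-F 19.0 ± 4.36 TPM and B2M 285 ± 85.8 TPM.

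**Figure D1:**
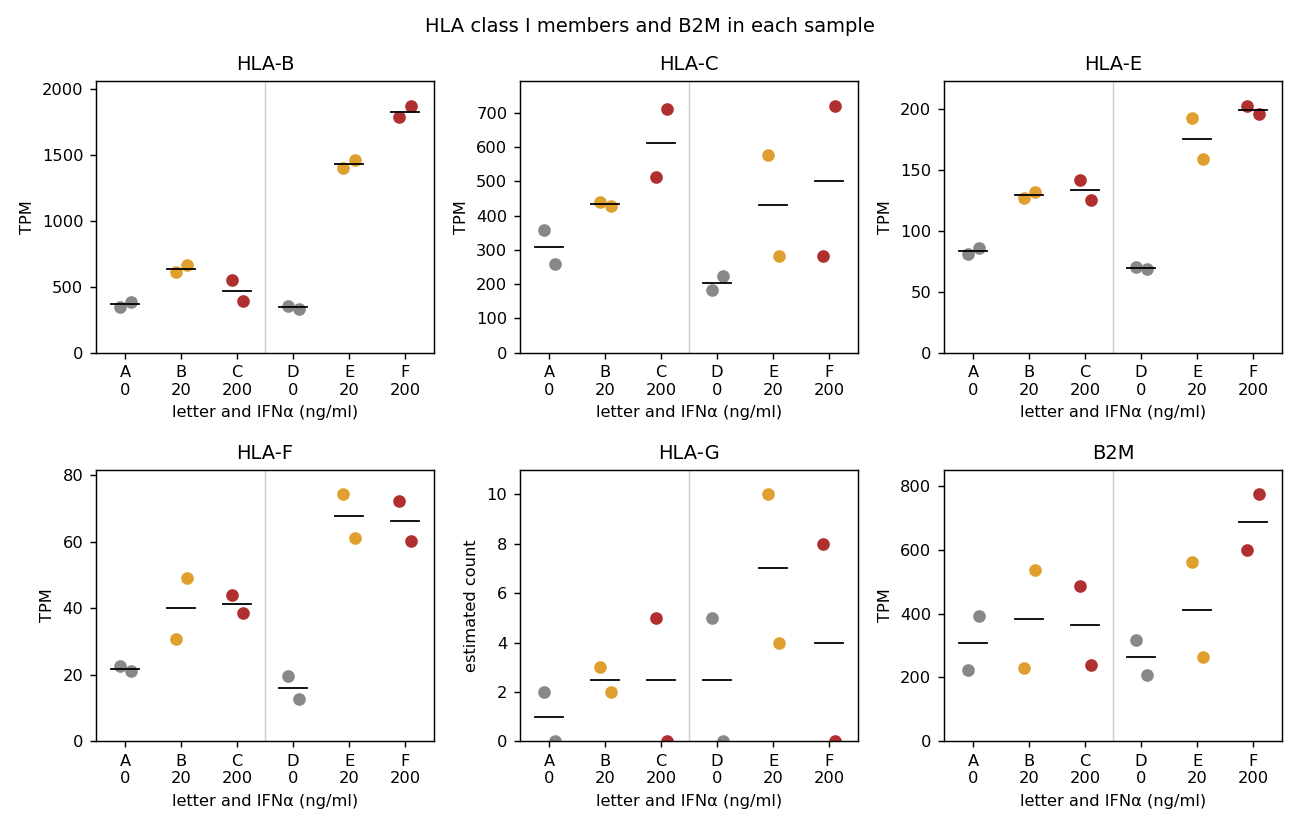
Level of each member in each of the 12 samples, in TPM, or in estimated counts for HLA-G. Points are samples, the black bar is the mean of the 2 replicates of a letter, and the second row of the axis gives IFNα in ng/ml. HLA-B of letters E and F lies at 1399 TPM or more, well clear of its level in the other letters, while the replicates of HLA-C and B2M lie far apart in several letters.

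With 200 ng/ml IFNα, HLA-B, HLA-E and HLA-F rose and HLA-C and B2M did not pass the test, over both line sets together. A gene is called here if it changed by a factor of 2 or more and its adjusted p-value did not exceed 0.05 in edgeR's quasi-likelihood test, with Benjamini-Hochberg adjustment over all 19944 genes tested. In this contrast 3 of the 5 members tested were called higher, against 1.58% of all genes, and none was called lower. HLA-G did not pass the filter on low counts. The median log2 fold change of the 5 tested members was 1.08, and that of all genes tested was -0.01. With 20 ng/ml, HLA-B and HLA-F were called higher, 2 of 5 against 0.963% of all genes.

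HLA-B, the HLA member with the highest mean TPM at every dose over both sets, stood at 346 and 385 TPM in the A controls. It reached 609 and 665 TPM in letter B and 547 and 388 TPM in letter C. In line set D-F it stood at 354 and 332 TPM in the controls, 1399 and 1462 TPM in letter E, and 1782 and 1871 TPM in letter F. Both control pairs were close together, no treated sample overlapped the controls of its own set, and C2 lay only just above A2. Over both sets the log2 fold change was 1.48 (SE 0.07, adjusted p = 5.19e-07 by edgeR) at 200 ng/ml and 1.44 (SE 0.07, adjusted p = 7.58e-07) at 20 ng/ml.

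The rise of HLA-B was not the same in the 2 line sets. It came to 5.13-fold at 200 ng/ml and 4.30-fold at 20 ng/ml in D-F, and to 1.52-fold and 1.72-fold in A-C, where the adjusted p-values were 0.00625 and 0.00225 but the fold stayed under 2. The difference of the responses, tested as an interaction in edgeR, was 1.75 (log2, SE 0.13, adjusted p = 0.00111) at 200 ng/ml and 1.32 (SE 0.13, adjusted p = 0.00306) at 20 ng/ml, larger in D-F. HLA-B was the 1 member of 5 called in these tests, in which 0.622% and 0.165% of all genes were called as responding more strongly in D-F. Without treatment HLA-B had the same level in both sets within its spread. The log2 difference of D from A was 0.03 (SE 0.09, adjusted p = 0.826 by edgeR). Both lines were aligned to the same genome build, and any effect of their HLA alleles on the levels was not tested. In TPM the rise of HLA-B in letter C was 1.28-fold, lower than the 1.52-fold of the counts.

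HLA-C, the other classical gene, had mean TPM values that were higher with IFNα in both sets but was not called. It stood at 357 and 260 TPM in letter A, 440 and 429 TPM in letter B, and 512 and 711 TPM in letter C. In D-F the values were 183 and 223 TPM in letter D, 578 and 281 TPM in letter E, and 281 and 721 TPM in letter F. Every treated sample lay above the controls of its own set, but the replicates of E and of F differed by 2.06 and 2.57 times. The log2 fold change was 1.08 (SE 0.30, adjusted p = 0.0543 by edgeR) at 200 ng/ml and 0.74 (SE 0.30, adjusted p = 0.246) at 20 ng/ml. At 200 ng/ml the call turned on the tool and on 1 library: DESeq2 called it higher (adjusted p = 0.0203), and so did edgeR without F1 (log2 1.34, adjusted p = 0.0144), without E1 (adjusted p = 0.0445) or without E2 (adjusted p = 0.0443).

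HLA-E, the nonclassical gene with the highest level, changed by less than HLA-B over both sets together but with a spread as small. It stood at 81.4 and 85.8 TPM in letter A, 127 and 132 TPM in letter B, and 141 and 125 TPM in letter C. In D-F it stood at 70.5 and 68.7 TPM in letter D, 192 and 159 TPM in letter E, and 203 and 196 TPM in letter F. All treated samples lay above all 4 controls, and all of letters E and F lay above all of B and C. The log2 fold change was 1.06 (SE 0.07, adjusted p = 1.54e-05 by edgeR) at 200 ng/ml, a called rise of 2.09-fold, and 0.95 (SE 0.07, adjusted p = 4.59e-05) at 20 ng/ml, a fold of 1.93. Without C1 the value at 200 ng/ml was 0.99 (adjusted p = 4.52e-05) and the call was lost to the fold threshold. In D-F alone HLA-E was called at both doses, with log2 fold changes of 1.44 and 1.28 (SE 0.10 for both). In A-C they were 0.68 (adjusted p = 0.00554) and 0.63 (adjusted p = 0.0183), under the fold threshold. HLA-B had 0.61 and 0.78 there (SE 0.09 for both), so at 200 ng/ml in A-C HLA-E did not change by less. For HLA-E the difference between the sets at 200 ng/ml was 0.76 (SE 0.14, adjusted p = 0.0358 by edgeR), with a fold of 1.69.

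HLA-F, the other nonclassical gene with a clear level, stood at 22.5 and 21.0 TPM in letter A, 30.9 and 49.2 TPM in letter B, and 44.0 and 38.7 TPM in letter C. In D-F it stood at 19.6 and 12.7 TPM in letter D, 74.2 and 61.2 TPM in letter E, and 72.3 and 60.3 TPM in letter F. No treated sample overlapped any control, and every sample of E and F lay above every sample of B and C. The log2 fold change was 1.43 (SE 0.19, adjusted p = 0.00142 by edgeR) at 200 ng/ml and 1.50 (SE 0.19, adjusted p = 0.00161) at 20 ng/ml. Within D-F it was called at both doses, at 4.41-fold and 4.38-fold, close to HLA-B. The difference between the sets at 200 ng/ml was 1.42 (SE 0.37, adjusted p = 0.0910 by edgeR) and was not called, whereas DESeq2 called it (adjusted p = 0.0106), as did edgeR without B1 (adjusted p = 0.0435) or without B2 (adjusted p = 0.0442). HLA-F-AS1, a noncoding gene on the opposite strand, was not called at 200 ng/ml (log2 0.54, SE 0.20, adjusted p = 0.142). The library kit kept the strand, but the sources used here do not say whether counting used it.

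HLA-G was at or near the limit of detection. Its estimated counts were 2 and 0 in letter A, 3 and 2 in letter B, 5 and 0 in letter C, 5 and 0 in letter D, 10 and 4 in letter E, and 8 and 0 in letter F. It was at 0 in 4 of 12 samples, where a count of 0 allows up to 3 counts, or 0.187 to 0.285 CPM, the counts scaled for depth. This covers counting error only. Both doses and the controls overlapped, no fold is given, and its 7 annotated transcripts never passed 0.905 TPM. Of the 31-base words of its transcripts, 11.3% also occur in transcripts of other genes, so single reads may not be its own.

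B2M, the light chain, had the widest replicate spread of the tested members and was not called in any of the 10 comparisons. Its values were 224 and 392 TPM in letter A, 229 and 535 TPM in letter B, and 487 and 240 TPM in letter C. In D-F they were 318 and 208 TPM in letter D, 562 and 263 TPM in letter E, and 600.3 and 773 TPM in letter F. The treated samples overlapped the controls in every letter except F, which lay above both D samples. The log2 fold change was 0.89 (SE 0.40, adjusted p = 0.214 by edgeR) at 200 ng/ml and 0.48 (SE 0.40, adjusted p = 0.634) at 20 ng/ml. Within D-F at 200 ng/ml it was 1.58 (SE 0.57, adjusted p = 0.166).

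**Figure D2:**
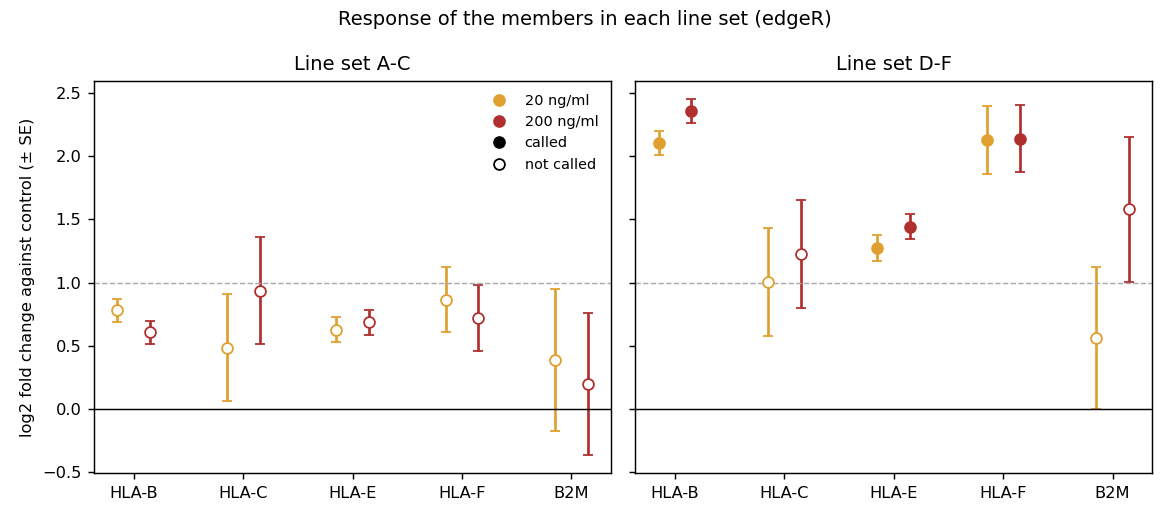
Fitted log2 fold change of each tested member against the controls of its line set, at 20 and 200 ng/ml IFNα, with bars of 1 SE. Filled points were called, the dashed line is the 2-fold threshold, and no member was called in A-C, while HLA-B, HLA-E and HLA-F were called in D-F at both doses.

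Within D-F, 3 of 5 members were called higher at each dose, against 1.67% of all genes at 200 ng/ml and 1.2% at 20 ng/ml. Within A-C none of the 5 was called in edgeR at 200 or 20 ng/ml, against 1.41% and 0.632% of all genes called higher, nor in DESeq2, which called 3.31% and 1.37% of genes either way. At an unadjusted p of at most 0.05 and any fold, HLA-B, HLA-E and HLA-F passed in A-C at both doses, 3 of 5, against 22.3% of all genes at 200 ng/ml and 12.3% at 20 ng/ml. Without B1, HLA-F was called in A-C at 20 ng/ml (log2 1.23, adjusted p = 0.0365). Both sets took part in the response to IFNα by other genes: all 7 interferon-stimulated genes listed to check the dose (MX1, IFIT1, IFIT3, ISG15, OAS1, IFI44L and IFI6) were called higher in each set at 200 ng/ml. Their median log2 fold change was 3.80 in A-C and 5.43 in D-F, and 5 of the 7 were lower in untreated D than in untreated A. The stronger response in D-F was not particular to HLA-B: the difference of the sets was also called for 6 of these 7 genes at 200 ng/ml and for all 7 at 20 ng/ml.

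No difference between the 2 doses passed the test for any member. Between 200 and 20 ng/ml, averaged over the sets, none of the 5 was called in edgeR, against 0.0451% of all genes called either way, and none in DESeq2, against 0.267%. None passed an unadjusted p of 0.05, against 9.26% of all genes. The log2 differences of 200 from 20 ng/ml were 0.04 (SE 0.06) for HLA-B, 0.11 (SE 0.07) for HLA-E, -0.07 (SE 0.18) for HLA-F, 0.34 (SE 0.30) for HLA-C and 0.41 (SE 0.40) for B2M. For B2M the error is nearly as large as the value. The value of HLA-B averages sets with opposite signs: taken within each set, a comparison added after the data had been seen, it was -0.17 (SE 0.09, adjusted p = 0.462 by edgeR) in A-C and 0.26 (SE 0.09, unadjusted p = 0.0191 and adjusted p = 0.971 by edgeR) in D-F. No member was called within a set, against 0.0702% of all genes in A-C and 0.015% in D-F.

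Untreated, none of the 5 members was called between the sets, while 26.6% of all genes in edgeR and 25.8% in DESeq2 were called either way. HLA-E was the 1 member past the adjusted p, at 0.39 lower on the log2 scale in D (log2 -0.39, SE 0.10, adjusted p = 0.0100 by edgeR), and also the 1 past an unadjusted p of 0.05, which 53.2% of all genes passed.

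Set as parts of a whole, the classical genes made up 85.1% to 91.0% of the summed TPM of the 5 HLA members in every sample. Other HLA genes are not in this sum. The share of HLA-B and HLA-C was 86.5% ± 0.944 (SD, n = 2) in letter A, 86.4% ± 0.794 in letter B and 86.0% ± 1.37 in letter C. It was 86.4% ± 1.16 in letter D, 88.4% ± 0.480 in letter E and 89.6% ± 1.98 in letter F. In A-C the share did not move beyond its spread, and in D-F both E samples and both F samples lay above both D samples. With 2 samples a letter this was not tested. HLA-E made up 11.2% and 10.8% in the D samples and 8.67% and 6.87% in the F samples. The contrast of the sets depended on the quantity. From coding transcripts alone the mean classical share was also higher with IFNα in A-C, at 80.4% in A and 83.6% in C.

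Inside the classical share HLA-B gained on HLA-C with IFNα in D-F, which was not seen beyond the spread in A-C. HLA-B was 47.0% ± 5.92 (SD, n = 2) of the sum in letter A, 51.3% ± 1.22 in B and 37.3% ± 9.34 in C. It was 54.3% ± 3.01, 68.4% ± 8.58 and 70.9% ± 7.43 in letters D, E and F. HLA-C took 39.4% ± 6.86, 35.0% ± 2.01 and 48.7% ± 10.7 in A, B and C. In D-F it took 32.1% ± 4.17 in D, 25.8% and 14.3% in E1 and E2, and 18.7% ± 9.41 in F. For both genes the samples of B and of C overlapped those of A. Every E and F sample lay above both D samples for HLA-B and below both for HLA-C. These shares were not tested. The ratio of HLA-B to HLA-C ran from 0.546 to 1.55 in A-C and from 1.49 to 6.34 in D-F. In C2 it was lowest, with HLA-B at 388 TPM and HLA-C at 711 TPM, yet the summed HLA of C1 and C2 was 1245 and 1264 TPM. The summed HLA rose from 780 ± 39.2 TPM in A to 1254 ± 13.7 in C (1.61 times) and from 632 ± 6.36 TPM in D to 2593 ± 360.3 in F (4.10 times). Against B2M the sum was 1.92 to 5.28 times as high in A-C and 1.98 to 7.46 times in D-F.

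**Figure D3:**
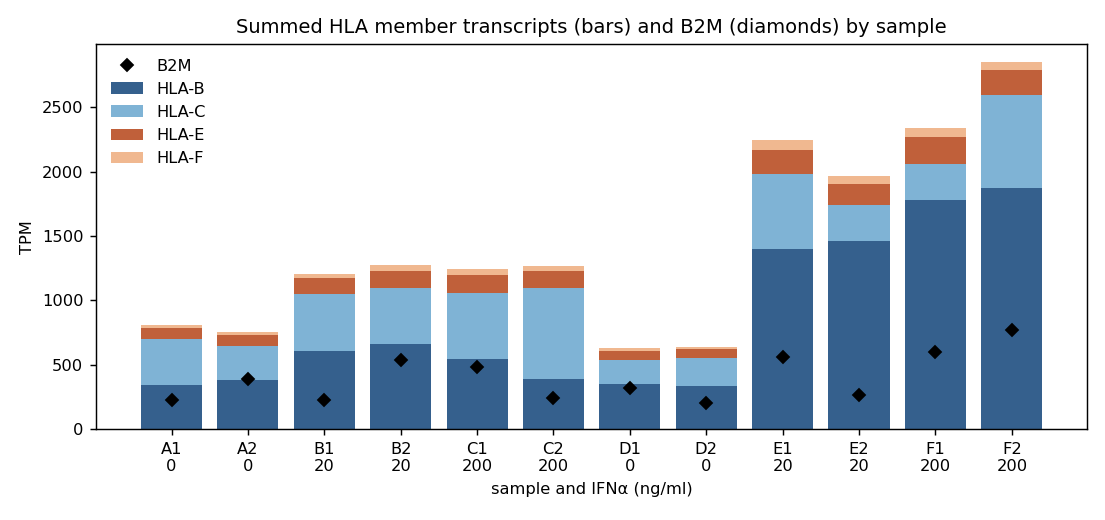
Stacked TPM of HLA-B, HLA-C, HLA-E and HLA-F in each sample (bars) with B2M (diamonds), and IFNα in ng/ml under each sample. HLA-G is below 1 TPM and is not drawn. The bars of E and F reach 1964 to 2848 TPM, mostly HLA-B, while the diamonds of replicates scatter.

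The members averaging 1000 counts or more fell into a steady and an unsteady pair. HLA-F and HLA-G lay below that count. Among the 3104 genes averaging 1000 counts or more, the absolute log2 difference between the 2 replicates of a letter, averaged over the 6 letters, had a median of 0.118. HLA-B had 0.109 and HLA-E 0.115, both near that median. HLA-C had 0.608, more than 98.1% of these genes, and B2M had 0.917, more than 99.5% of them and rank 17 from the top. The largest gap was 1.61 for B2M in letter B and 1.38 for HLA-C in letter F. The counts behind them were large, 2109 and 7718 for B2M in letter B and 2660 and 7122 for HLA-C in letter F, so counting error is small beside these gaps. The biological coefficient of variation fitted by edgeR was 0.0889 for HLA-B, 0.0920 for HLA-E, 0.190 for HLA-F, 0.296 for HLA-C and 0.386 for B2M.

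**Figure D4:**
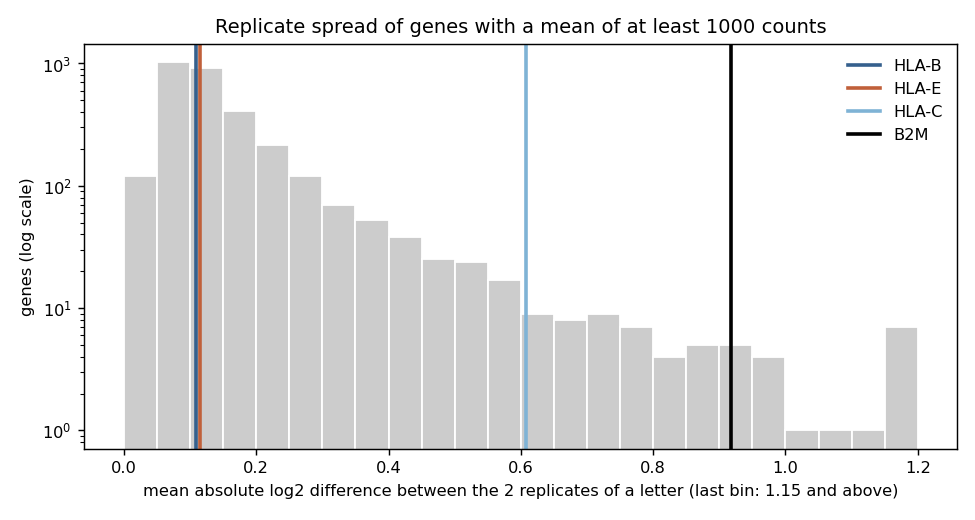
Histogram of the mean absolute log2 difference between replicates over the 3104 genes averaging 1000 counts or more, with a logarithmic count axis and the last bin open. Vertical lines mark HLA-B (0.109) and HLA-E (0.115) near the median and HLA-C (0.608) and B2M (0.917) far to the right.

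The gene values are sums over transcripts, so the transcripts of each member were read as well. They numbered 10 for HLA-B, 10 for HLA-C, 3 for HLA-E, 15 for HLA-F, 7 for HLA-G and 14 for B2M, 59 in all, with types from GENCODE release 29. Protein-coding transcripts carried 93.1% to 97.6% of the TPM of HLA-E and 56.6% to 83.8% of that of HLA-B. They carried 28.1% to 78.5% for HLA-C, 27.7% to 67.2% for HLA-F and 15.3% to 51.7% for B2M. Of 75876 transcripts tested in edgeR, 0.343% were called higher at 200 ng/ml and 0.24% at 20 ng/ml. Of the member transcripts tested, 3 were called higher at each dose. Some of the 59, among them all 7 of HLA-G, did not pass the filter on low counts and were not tested.

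The transcript of HLA-B with the highest mean, HLA-B-249 (ENST00000412585, coding, 55.2% of the gene), stood at 134 and 147 TPM in A, 233 and 291 in B, and 252 and 287 in C. In D-F it stood at 192 and 186 TPM in D, 955 and 854 in E, and 1030 and 1041 in F. Its replicates were closer in letter C than those of the whole gene, and no treated sample overlapped a control. Its log2 fold change was 1.60 (SE 0.09, adjusted p = 2.78e-04 by edgeR) at 200 ng/ml and 1.52 (SE 0.09, adjusted p = 4.75e-04) at 20 ng/ml. HLA-B-256 (ENST00000639848, coding) was also called at 20 ng/ml, at a level of at most 5.24 TPM (log2 2.19, SE 0.32, adjusted p = 0.0493), a call lost when any 1 library was left out (adjusted p from 0.0949 to 0.236). HLA-E-201 (ENST00000376630), the 1 coding transcript of HLA-E, held 95.7% of the gene and was called at 200 ng/ml (log2 1.01, SE 0.09, adjusted p = 0.00400), a call lost to the fold threshold without A1, C1 or F1 (lowest log2 value 0.93).

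One HLA-B transcript reaches into HLA-C. HLA-B-258 (ENST00000640615, coding) begins with 2 exons at chr6:31355317-31355404 and chr6:31355107-31355223 in HLA-B, and its last exon, of 35 bases at chr6:31269491-31269525, covers the exon at chr6:31269493-31269525 of HLA-C-201. Through it the HLA-B row spans chr6:31269491-31357188 on the minus strand and overlaps HLA-C at chr6:31268749-31272130 on the same strand. HLA-B-258 held 9.55% to 26.9% of the TPM of HLA-B in the samples of A-C and 1.83% to 3.16% in those of D-F, with 37.1 to 179 TPM in A-C and 6.49 to 44.2 TPM in D-F. C2, the sample with the lowest ratio of HLA-B to HLA-C, had the lowest HLA-B-258 of A-C. It also had the lowest sum of retained-intron HLA-B transcripts of A-C, which lie outside HLA-C, at 62.8 TPM against 187 in C1. With HLA-B-258 left out, an alternative chosen after the data had been seen, the calls of HLA-B stayed as they were. HLA-B and HLA-C are also alike in sequence: 8.86% of the 31-base words of HLA-B transcripts occur in HLA-C, and 10.4% of those of HLA-C in HLA-B. How far reads passed from one to the other was not tested.

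HLA-C-201 (ENST00000376228, coding), the highest HLA-C transcript with 43.9% of the gene, stood at 59.0 and 131 TPM in D, 312 and 108 in E, and 146 and 154 in F. In F2 the gene's high value lay elsewhere: HLA-C-202 (ENST00000376237, annotated as a target of nonsense-mediated decay) had 338 TPM there and 10.4 to 82.3 TPM in the other 11 samples. No HLA-C transcript was called at either dose. The highest HLA-F transcript was HLA-F-216 (ENST00000259951, coding), listed at 0 in C1 and C2 and between 14.6 and 19.9 TPM in E and F, and no HLA-F transcript was called at either dose over both sets. At 200 ng/ml over both sets the fitted value of HLA-F-216 was negative and just missed the threshold (adjusted p = 0.0580 by edgeR). That value averages A-C, with 0 in letter C, and D-F, with 2.67 ± 0.88 TPM (mean ± SD) in D and 16.3 ± 1.7 in F. HLA-F-216 was the 1 member transcript called in the difference of the sets at 200 ng/ml (adjusted p = 0.0367 by edgeR), against 0.0514% of all transcripts. No fold is given because it was at 0 in letter C. How reads of HLA-F were divided among its transcripts was not tested.

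Several B2M transcripts were unsteady in the same way, though not all. B2M-211 (ENST00000561139, annotated as a target of nonsense-mediated decay, 19.2% of the gene) had closer replicates. It stood at 38.0 and 36.9 TPM in A and 41.0 and 46.2 in D, and at 59.1 TPM or more in every treated sample. It was not called at 200 ng/ml (log2 1.14, SE 0.20, adjusted p = 0.0649 by edgeR). The highest B2M transcript, B2M-204 (ENST00000558401, coding, 31.2% of the gene), ran from 27.7 TPM in A1 to 259 TPM in F1, with 247 TPM in C1 and 52.1 TPM in C2. B2M-213 (ENST00000623550, a retained intron) had 284 TPM in F2, 159 in B2 and 107 in A1, and at most 19.1 TPM in the other 9 samples. B2M-214 (ENST00000632133, a retained intron) was steady and was the 1 B2M transcript called, with 8.74 and 10.4 TPM in A, 19.5 and 18.2 in B, and 23.4 and 25.1 in C. In D-F it had 10.3 and 9.08 TPM in D, 26.4 and 25.1 in E, and 26.5 ± 3.5 (mean ± SD) in F. All 8 treated samples lay above all 4 controls, and the fold change was 2.46 (SE 0.16 on the log2 scale, adjusted p = 0.0193 by edgeR) at 200 ng/ml and 2.19 (SE 0.16, adjusted p = 0.0457) at 20 ng/ml. The call at 200 ng/ml was lost when any 1 library other than C1 was left out, with adjusted p-values up to 0.0986, and that at 20 ng/ml when any 1 was left out (0.0940 to 0.203). B2M-214 held 4.74% of the gene. These libraries were made from RNA depleted of rRNA without selection for poly(A), and how reads of B2M were divided among its 14 transcripts was not tested.

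**Figure D5:**
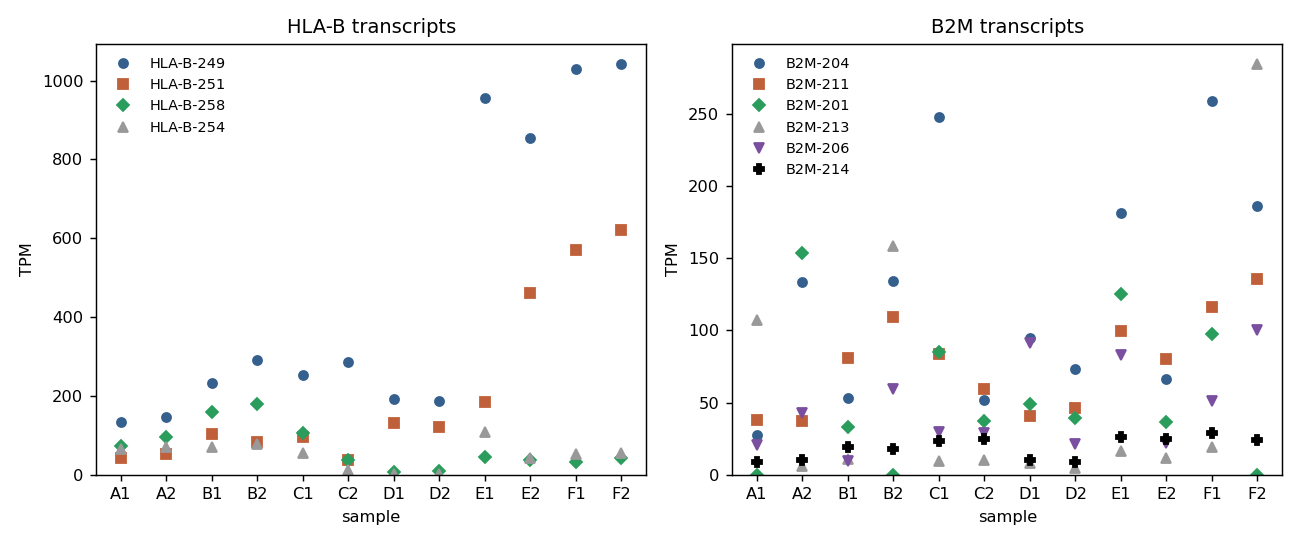
TPM of the leading transcripts of HLA-B and B2M in each of the 12 samples, 1 symbol for each transcript. HLA-B-249 lies at 854 TPM or more in E and F against at most 291 TPM elsewhere, whereas B2M-204, B2M-201 and B2M-213 jump between replicates and B2M-214 lies at 18.2 TPM or more in all treated samples.

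Genes that prepare peptides for class I were read beside the members. Of 7 genes of the peptide transporter and loading complex, 1 was called higher at 200 ng/ml over both sets and none lower, with a list median log2 fold change of 0.43. The called gene was TAP1, a chain of the transporter that brings peptides into the endoplasmic reticulum (log2 1.51, SE 0.06, adjusted p = 3.35e-07 by edgeR). TAP2, its partner, had a log2 value of 0.62 (SE 0.06) and was not called. Of 5 immunoproteasome and activator genes, PSMB9 alone was called (log2 1.34, SE 0.13), and PSMB8, a second catalytic subunit, had 0.75 (SE 0.07). In D-F both were called. None of the 3 trimming peptidases ERAP1, ERAP2 and LNPEP was called, at log2 values from 0.54 to 0.70, all 3 past the adjusted p but under 2-fold.

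Of 11 regulators of class I promoters, 3 were called higher at 200 ng/ml and none lower: STAT2 (log2 1.80) and IRF9 (2.69), which act on interferon response elements, and NLRC5 (1.56, SE 0.07), the coactivator of class I genes. NLRC5 was the 1 regulator called in the difference of the responses between the sets, by 1.52 (log2, SE 0.15, adjusted p = 0.00246 by edgeR) at 200 ng/ml. Its level was 61.6 ± 1.73 TPM (SD, n = 2) in A, 88.4 and 71.4 in B1 and B2 and 101 ± 10.3 in C, and 21.4 ± 0.487 in D, 79.9 ± 5.73 in E and 108 ± 4.26 in F. NLRC5 was thus lower in untreated D than in untreated A (log2 -1.47, SE 0.11, adjusted p = 4.50e-06), and its means with 200 ng/ml were close. HLA-B, at 366 ± 27.7 TPM in A and 343 ± 15.6 in D untreated, had 468 ± 112 TPM in C and 1826 ± 63.0 in F. Whether the level of NLRC5 bears on that of HLA-B was not tested. CIITA, the coactivator of class II genes, was lower in untreated D than in untreated A (log2 -6.12, SE 0.51) and was not called with IFNα.

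Of 8 class I-like genes, 6 were tested and MR1, which shows vitamin metabolites to T cells, was called at 200 ng/ml (log2 1.14, SE 0.18, adjusted p = 0.00387 by edgeR). It was called within D-F and not within A-C, where its level was 9.72 ± 0.583 TPM in A and 9.29 ± 4.60 in C. Of 13 class I pseudogenes, 12 were in the table and 5 were tested. None was called over both sets, and HLA-H was called higher in D-F (log2 1.32, SE 0.27), at 13.0 ± 2.02 TPM in D and 34.7 ± 4.87 in F. HLA-K was at 10.9 ± 1.57 TPM in A and listed at 0 in all 6 samples of D-F. Of 11 noncoding neighbours in the class I region 10 were in the table, 6 were tested and none was called. The 11 lymphocyte receptors that bind class I, among them CD8A, KLRD1 and LILRB1, summed to at most 1.49 TPM in any sample, and none passed the filter.

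By likeness over the 12 samples, measured as Pearson's r of log2 CPM and given as a description, TAP1 was nearest to HLA-E (r = 0.982) among 13028 genes, followed by HIST3H2BB (0.976) and ANTXR2 (0.975). For HLA-B the nearest genes of those reported here were ATG16L1 (0.982) and RPSAP52 (0.980). HLA-F was nearest to MYL12A (0.953), CMTR1 (0.943) and SEMA7A (0.940). HLA-C was nearest to CENPBD1 (0.895), ZNF212 (0.887) and MAD2L1BP (0.852), and B2M to GGA3 (0.885), GJC1 (0.831) and SDF2 (0.816). Among the members r was highest for HLA-E with HLA-F (0.95) and lowest for HLA-B with HLA-C (0.24). The samples share their line set and dose, which gives many genes a like pattern.

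The samples carried epithelial markers and few of other cell types. The 8 epithelial and squamous markers summed to 1186 to 3350.4 TPM, lower in D-F, where KRT14 was listed at 0 in D and E. PTPRC was at or near 0 and CD3E and MS4A1 were at 0. The 7 leukocyte markers summed to 5.37 to 40.6 TPM, mostly CD68, a lysosomal protein not restricted to leukocytes, which was called higher (log2 1.77, SE 0.14). Like HLA-B, CD68 was called in D-F (log2 2.71) and not in A-C (0.82), and its difference between the sets was called at 200 ng/ml (1.89, SE 0.27, adjusted p = 0.0126 by edgeR). Of the epithelial markers, KRT6A (log2 1.21, SE 0.11) and KRT14 were called higher at 200 ng/ml over both sets. KRT6A was called in D-F alone and KRT14 in neither set alone. KRT14 stood at 43.5 ± 1.16 TPM in A and 47.9 ± 1.78 in C. In D-F it was near the floor, at 0 in D and 0.254 and 0.176 TPM in F. The part of these markers in the rise of the HLA genes was not tested. Total counts ran from 10517448 to 16056734 a sample, and the 4 controls had more counts than the 4 samples at 200 ng/ml. Samples of 1 line set correlated at r of 0.940 to 0.976 and samples of different sets at 0.678 to 0.717.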

How the data were processed

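The 12 libraries held total RNA of 2 HNSCC lines without or with IFNα at 20 or 200 ng/ml. They were depleted of rRNA, kept the strand and were sequenced with HiseqXTen. The submitters' processing notes name Trimmomatic 0.36, HISAT2 2.1.0, StringTie 1.3.3b and build GRCh38.p10. The annotation and the counting options were not given in the sources used here. Estimated counts of genes and transcripts, whole numbers without any scaling, were deposited. Deposited TPM values, scaled by the authors for transcript length and depth, were used for levels and shares. Deposited FPKM values were not used here. For all 60099 genes the count equalled the sum over their transcripts, so a read placed with the wrong transcript can also move it between overlapping genes.

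Estimated counts were tested with edgeR 4.0.16 in R 4.3.3 (TMM, filterByExpr, quasi-likelihood test, 1 fit of the 6 letters, Benjamini-Hochberg adjustment over all genes or transcripts tested). A fold change of at least 2 and an adjusted p of at most 0.05 made a call, and the SE is the log2 fold change over the square root of F. Depth was 10517448 to 16056734 counts a sample, and 2 replicates a letter limit the precision. Alternatives were DESeq2 1.42.0, RLE size factors, no filter, a replicate block, each library left out, other thresholds, and fits without the line set or with only the samples compared. Tables and figures were made with Python 3.11.15, pandas 2.3.3, numpy 2.4.6 and matplotlib 3.10.9. The tests were tried on simulated data. Likeness used log2 CPM with a prior count of 2 over genes averaging 50 counts or more. Transcript types came from GENCODE release 29 and promoters from RefSeq on GRCh38.p14. Dose and letter came from the sample titles and the study's design. The members and gene lists were chosen with earlier results of these data known. Named beside the members were the listed genes, each member's highest and called transcripts, and the genes most like it. Some genes, of the region and of the lists, are not reported here.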

Additional observations from a re-analysis of the deposited data

Results flagged for a closer look

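HLA-B responded more strongly in line set D-F than in A-C, by 1.75 on the log2 scale at 200 ng/ml (adjusted p = 0.00111 by edgeR) and by 1.32 at 20 ng/ml (adjusted p = 0.00306), and was singled out because the interaction itself passed the test at both doses. Both D-F treated letters, 4 of 4 samples, lay above all 4 treated samples of A-C. Of the 7 interferon-stimulated genes listed to check the dose, 6 at 200 ng/ml and 7 at 20 ng/ml were called in the same test. For HLA-E the difference was 0.76 at 200 ng/ml, which passed the adjusted p (0.0358 by edgeR) but, at 1.69-fold, not the fold threshold, so it was not called, and at 20 ng/ml the adjusted p was 0.110, with 4 of 4 treated D-F samples above the treated A-C samples. In 21 groups of 4 samples of 1 dose, covering the 6 members and the classical share, 0 samples lay far enough from the others to be singled out by Dixon's 95% critical value. The 4 samples of a dose hold both line sets, which widens the range of each group. Which of Cal27 and HN30 is D-F was not analysed here, and line, culture and any handling that followed the letters cannot be told apart.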

How the results depend on the processing

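The counts of called members kept to the values of the report with RLE size factors, without the filter, with the samples of 1 line set alone, and with coding transcripts alone or without HLA-B-258 (both chosen after seeing the data). Without the line set in the fit, 1 member (HLA-E) was called at 200 ng/ml and 0 at 20 ng/ml. With no fold threshold, 2 members (HLA-B and HLA-E) were called in A-C at each dose (7.18% of all genes at 200 and 1.11% at 20 ng/ml), 2 in the difference of the sets at 200 ng/ml (1.88%), and 1 (HLA-E) between the untreated letters (46.4%). At an unadjusted p with the fold threshold, 5 members were called in D-F at 200 ng/ml (4.76% of all genes), and 2 (HLA-B and HLA-F) in the difference of the sets at either dose (6.28% at 200 and 4.06% at 20 ng/ml). DESeq2 called 2 in that difference at 200 ng/ml (2.92%).

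With 1 library left out, the number of members called ran from 2 to 4 at 200 ng/ml over both sets, 3 to 4 in D-F, 0 to 1 in A-C at 20 ng/ml, and 1 to 2 in the difference of the sets at 200 ng/ml. Member transcripts called at 200 ng/ml ran from 1 to 3, and at 20 ng/ml from 1 to 2, HLA-B-249 each time. DESeq2 called 12 and 11 member transcripts either way (3.44% and 2.39% of all transcripts), and an unadjusted p 21 and 18 (6.33% and 5.02%).

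The classical share moved with the quantity. From coding transcripts alone it was 80.4%, 83.5% and 83.6% in A, B and C and 81.8%, 85.4% and 84.7% in D, E and F. From estimated counts it was 77.4%, 77.0% and 78.7%, and 77.9%, 81.7% and 82.6%. The cause was not tested.

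Against the controls and in the difference of the sets, values that were not called changed sign for B2M and HLA-C when 1 library was left out. For B2M the log2 fold change at 20 ng/ml ran from -0.037 (without B2) to 0.77 over both sets, from -0.64 (without B2) to 0.98 in A-C and from -0.066 (without E1) to 0.99 in D-F, and at 200 ng/ml in A-C from -0.54 (without C1) to 0.67. Its difference between the sets at 20 ng/ml ran from -0.48 (without E1) to 1.20 and was also below 0 without B1 (-0.42) and without D2 (-0.098). For HLA-C that difference ran from -0.57 (without F2) to 0.83 at 200 ng/ml and from -0.10 (without E1) to 0.95 at 20 ng/ml, and was -0.94 from coding transcripts alone at 200 ng/ml. Of the values of single members in those comparisons under the alternatives, 804 kept direction and side of the threshold. Of the rest, 21 gained a call, 5 lost one and 10 changed sign. The comparisons between the doses and between the untreated letters are not in these counts.

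The fit with a replicate block called 3, 2 and 0 members at 200 ng/ml, at 20 ng/ml and between the doses, as without it, and changed no call of a member gene. It called 1 member transcript (HLA-B-249) at each dose. The numbers 1 and 2 are no sign of a pairing: deviations of same-numbered samples from their letter means correlated at -0.051 to 0.058 over 13033 genes.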
